A study of Mus musculus with 8 samples.

Results

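Licensing genes, whose products load the replicative helicase onto DNA before S phase, were followed with 2 S-phase companions in mouse embryonic fibroblasts, connective tissue cells cultured from embryos. The set of 10 genes comprised the helicase subunits Mcm2, Mcm3, Mcm4, Mcm5, Mcm6 and Mcm7, the loading factors Cdt1 and Cdc6, the sliding clamp Pcna and the cyclin Ccne2. They were chosen by symbol, with earlier results of these data known. The counts of members set beside all probe sets below are thus not independent evidence. All 10 genes were on the array, of 8251 genes with a probe set that has a single gene symbol. They had 13 probe sets, of which 11, for 9 genes, read a log2 value of at least 5 on at least 2 arrays and were tested. Mcm6 read 2.04 to 2.51 on all 8 arrays and was not tested. The second Mcm5 probe set, at 3.29 to 4.14, was not tested either.

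The 4 groups held 2 arrays each: Stat3 KO (STAT3-/-) cells with OSM, Stat3 KO cells without OSM, Stat3 WT (STAT3+/+) cells with OSM and Stat3 WT cells without OSM. OSM is oncostatin M, a gp130 cytokine related to interleukin-6, given at 20 ng/ml for 30 minutes. Each genotype was 1 spontaneously immortalised line grown in serum, so the genotype and other differences between the lines cannot be told apart. Every group has an array titled 02 and an array titled 03, and the labels do not say what this number marks. Treatment was taken from the titles, since the growth text mentions OSM for every sample. The comparison asked of the data here is whether the licensing genes differ with genotype or with OSM, within each number as well as over both.

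Before replication a hexamer of Mcm2 to Mcm7 is placed at each origin by the origin recognition complex together with Cdc6 and Cdt1, and in S phase that hexamer becomes the motor of the DNA helicase. Geminin and the destruction of Cdt1 keep origins from being licensed again in the same cycle. Many of these genes are known targets of the E2F factors, which are released from the retinoblastoma protein as cells leave quiescence, so that their transcripts are usually low in resting fibroblasts and high in growing ones.

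Promoter sequence is shown for members from both ends of the range of variation, with the letters that E2F factors are known to bind. The windows run from 250 bases before to 50 bases after each start that RefSeq lists on GRCm38.p6, and 8 of the 10 genes had an entry. The letters searched, on both strands, were TTTCCCGC, TTTCGCGC, TTTGCCGC and TTTGGCGC. They occurred in windows of 6 of the 8 genes (Cdc6, Cdt1, Mcm3, Mcm5, Mcm6 and Mcm7), while 2.26% of all 32851 windows held a match. Mcm2 and Pcna had none. Capitals below mark these letters, all sequences run 5′ to 3′ along the gene, and where a match lies inside the annotated gene only the match with 4 bases on each side is given. Mcm5 is shown at chr8:75109259-75109467 (plus strand), Cdc6 at chr11:98908009-98908024 (plus), Mcm7 at chr5:138172037-138172052 (minus), Cdt1 at chr8:122568043-122568058 (plus), Mcm3 at chr1:20820263-20820278 (minus), Mcm2 at chr6:88898781-88899030 (minus) and Pcna at chr2:132253181-132253430 (minus).
Mcm5 upstream of the gene: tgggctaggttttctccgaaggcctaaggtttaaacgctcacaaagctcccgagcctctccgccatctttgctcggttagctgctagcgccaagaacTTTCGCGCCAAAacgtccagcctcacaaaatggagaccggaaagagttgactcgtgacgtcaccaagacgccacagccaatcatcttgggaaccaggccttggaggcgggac
Cdc6 site: gagaGCGGGAAAtcgc
Mcm7 site: aaccGCGGGAAAcagg
Cdt1 site: ccttTTTGGCGCcatg
Mcm3 site: aagtTTTGGCGCcaag
Mcm2 upstream of the gene: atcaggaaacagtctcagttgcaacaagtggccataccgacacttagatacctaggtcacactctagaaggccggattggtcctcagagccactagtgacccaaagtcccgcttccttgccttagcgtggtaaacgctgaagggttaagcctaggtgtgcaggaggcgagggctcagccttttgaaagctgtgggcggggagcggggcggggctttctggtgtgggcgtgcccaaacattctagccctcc
Pcna upstream of the gene: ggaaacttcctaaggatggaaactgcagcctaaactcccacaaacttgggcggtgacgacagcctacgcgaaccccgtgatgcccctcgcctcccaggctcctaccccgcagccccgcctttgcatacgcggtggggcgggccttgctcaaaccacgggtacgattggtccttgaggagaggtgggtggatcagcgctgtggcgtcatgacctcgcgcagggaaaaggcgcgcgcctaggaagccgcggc

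In Mcm5 a pair of matches on opposite strands overlaps, starting 153 bases before the listed start. That start lies inside the annotated gene, so the Mcm5 stretch shown ends before it. The Cdc6 match begins 138 bases before the listed start and the Mcm7 match shown 165 bases before it, both inside the annotated span of the gene, and Mcm7 has another at base 17 after the start. The Cdt1 match begins at base 33 after the start and the Mcm3 match shown at base 39, and Mcm3 has another at base 20. The letters CCAAT, read on both strands, occurred in 6 of the 8 genes (all but Cdc6 and Cdt1) and in 37.4% of all windows. TTTGAA, a cell cycle element, was found in Mcm2 alone, against 17.9% of windows. TTCNNNGAA, the letters of a STAT site, was found in Mcm5 alone, against 8.3% of windows. These are matches of letters, not measured binding.

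The split by number was wider than the spread within it. Over the tested probe sets, arrays of 1 number correlated at 0.9325 to 0.977 and the 2 arrays of a group at 0.8694 to 0.9258. The number 03 arrays also read 14.75 to 15.13 for the 18S rRNA control, against 11.02 to 11.67 in number 02, 0.72 to 1.11 for actin 3′ minus 5′ probes, against 0.33 to 0.53, and 6.73 to 7.36 for the spiked BioB control, against 9.78 to 10.05. The untreated Stat3 KO array of number 03 also correlated at 0.9303 with the OSM array of Stat3 KO in number 02. The part of these differences in the results below was not tested. Stat3 read 7.81 to 9.17 in the Stat3 KO arrays, against 10.11 to 11.94 in the Stat3 WT arrays. Its other probe set read 2.76 to 2.94 in 3 Stat3 KO arrays but 7.30 in the OSM array of number 03, against 9.80 to 12.57 in Stat3 WT, so this library stands apart from its label, and the labels do not place the probes relative to the deleted part. Of 14 fibroblast markers on the array 10 reached 5 on all arrays, 3 (Vim, Thy1 and Fap) on none, and Lum only on the 2 Stat3 WT arrays of number 03. Markers at 5 or more on all arrays numbered 0 of 6 for epithelium, 1 of 6 for endothelium (Pecam1, 5.47 to 5.97) and 2 of 7 for leukocytes (Csf1r, 8.80 to 10.20, and Cd14, 9.34 to 11.62). They numbered 2 of 6 for muscle (Myog, 7.19 to 9.66, and Actc1, 10.48 to 11.12) and 1 of 6 for neural cells (Tubb3, 10.83 to 12.44). The summed level of the fibroblast markers, as log2, was 17.73 to 18.18 in the Stat3 KO arrays, against 17.42 to 18.45 in the Stat3 WT arrays, and that of the leukocyte markers 10.26 to 11.38, against 10.71 to 11.86. For epithelial markers it was 6.01 to 6.40 in Stat3 KO, against 6.32 to 6.74 in Stat3 WT, and for endothelial markers 6.61 to 7.46, against 6.67 to 8.53. For neural markers it was 10.90 to 11.84, against 10.91 to 12.45. The muscle markers did not overlap, at 11.13 to 11.31 in Stat3 KO, against 10.84 to 11.09 in Stat3 WT. By number, the fibroblast sum was 18.04 to 18.45 in number 03, against 17.42 to 17.95 in number 02. The endothelial sum was 7.17 to 8.53, against 6.61 to 6.90, and the other sums overlapped between numbers. Markers under 5 on all arrays numbered 4 of 6 for epithelium (with Cdh1 and Epcam), 4 of 6 for endothelium (with Cdh5) and 5 of 7 for leukocytes (with Ptprc). They numbered 4 of 6 for muscle and 2 of 6 for neural cells. The fibroblast markers Vim, Thy1 and Fap were under 5 as well, so such a reading is not a measured absence of a cell type.

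**Figure D1:**
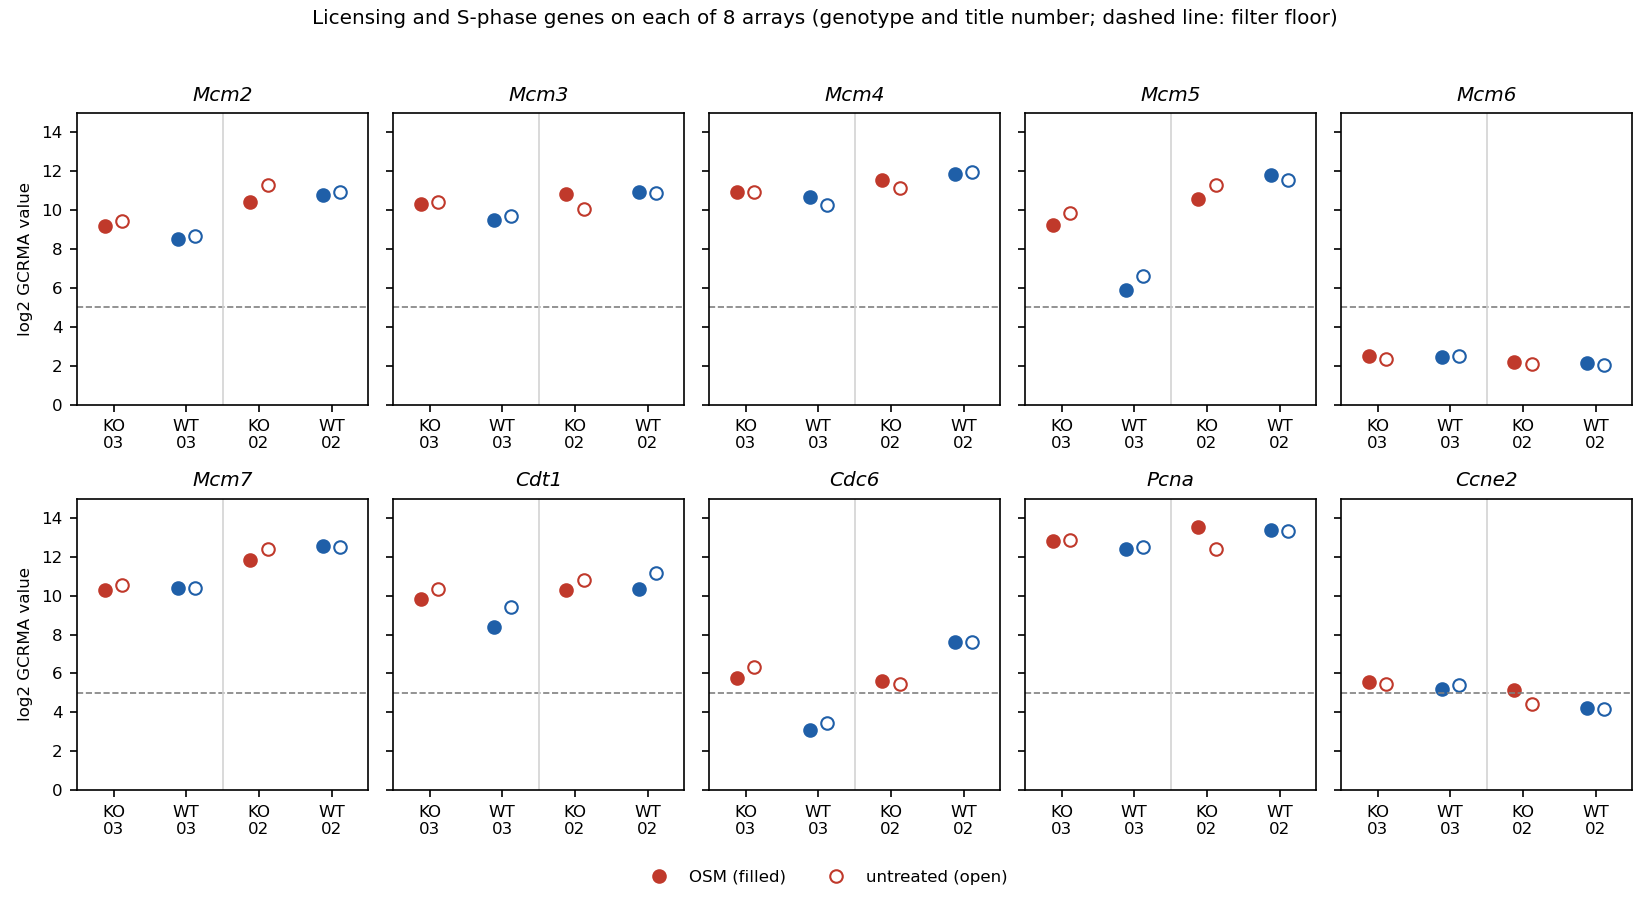
Log2 GCRMA value of each of the 10 members on every array, with the arrays grouped by genotype and title number. Mcm6, which was not tested, is included at 2.04 to 2.51. Mcm5 and Cdc6 drop furthest in the 2 Stat3 WT arrays of number 03, at 5.87 to 6.61 and 3.07 to 3.46, while Pcna stays between 12.40 and 13.51 on all 8 arrays.

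Among the helicase subunits Mcm5 varied most. In number 03 Mcm5 read 9.22 and 9.87 in Stat3 KO cells with and without OSM, against 5.87 and 6.61 in Stat3 WT cells with and without OSM. In number 02 it read 10.59 and 11.32 in Stat3 KO cells with and without OSM, against 11.82 and 11.56 in Stat3 WT cells with and without OSM. The genotypes did not overlap in either number, and the order turned round: Stat3 KO was the higher line in number 03 and the lower in number 02. The range of 5.95 was wider than that of 98.2% of all tested probe sets.

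Mcm7, another subunit of the ring, differed by number in both lines. Its values in number 03 were 10.27 and 10.54 in Stat3 KO cells with and without OSM, against 10.37 and 10.40 in Stat3 WT cells. The corresponding values in number 02 were 11.81 and 12.40 in Stat3 KO cells with and without OSM, against 12.57 and 12.53 in Stat3 WT cells. All 4 arrays of number 03 lay below all 4 of number 02, and the genotypes overlapped in number 03. Mcm2 had 9.17 and 9.45 in Stat3 KO cells of number 03 with and without OSM, against 8.54 and 8.65 in Stat3 WT cells. For number 02 Mcm2 had 10.41 and 11.28 in Stat3 KO cells with and without OSM, against 10.80 and 10.92 in Stat3 WT cells. Here too the numbers did not overlap, and in number 02 the Stat3 WT arrays lay between the Stat3 KO arrays.

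Mcm4 showed a smaller shift. It read 10.91 and 10.96 in number 03 Stat3 KO cells with and without OSM, against 10.66 and 10.26 in Stat3 WT cells. In number 02 the readings were 11.55 and 11.12 in Stat3 KO cells with and without OSM, against 11.88 and 11.95 in Stat3 WT cells. The 2 Stat3 WT arrays were thus the highest in number 02 and the lowest in number 03. Mcm3 followed the same order at 10.34 and 10.40 in Stat3 KO cells of number 03 with and without OSM, against 9.48 and 9.68 in Stat3 WT cells. Number 02 gave Mcm3 values of 10.83 and 10.07 in Stat3 KO cells with and without OSM, against 10.91 and 10.87 in Stat3 WT cells. A second Mcm3 probe set spanned 9.69 to 10.56 over the 8 arrays, and it too was higher in both Stat3 KO arrays than in both Stat3 WT arrays of number 03. In number 02 the lines overlapped on it, at 10.25 and 10.11 in Stat3 KO cells with and without OSM, against 10.56 and 10.16 in Stat3 WT cells.

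Of the loading factors Cdc6 differed more between arrays than Cdt1. Cdc6, the ATPase that recruits the helicase with the origin recognition complex, was dim: in number 03 it read 5.74 and 6.33 in Stat3 KO cells with and without OSM, against 3.07 and 3.46 in Stat3 WT cells. In number 02 Cdc6 read 5.60 and 5.48 in Stat3 KO cells with and without OSM, against 7.64 on both Stat3 WT arrays. Stat3 KO cells thus held Cdc6 within 1 log2 unit over the 4 arrays, and Stat3 WT cells spanned 4.57. Cdt1, which escorts the hexamer to the origin, read 9.84 and 10.32 in Stat3 KO cells of number 03 with and without OSM, against 8.38 and 9.41 in Stat3 WT cells. In number 02 Cdt1 was 10.29 and 10.83 in Stat3 KO cells with and without OSM, against 10.34 and 11.17 in Stat3 WT cells. On every pair of arrays of 1 line and number, the OSM array had the lower Cdt1 value.

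Pcna, the clamp that holds polymerases on DNA, and Ccne2, a partner of CDK2 at the start of S phase, moved least. Pcna read 12.80 and 12.88 in Stat3 KO cells of number 03 with and without OSM, against 12.42 and 12.53 in Stat3 WT cells. In number 02 Pcna stood at 13.51 and 12.40 in Stat3 KO cells with and without OSM, against 13.38 and 13.32 in Stat3 WT cells. Its range of 1.11 exceeded that of 36% of tested probe sets. Ccne2 ran against the others, with 5.54 and 5.48 in Stat3 KO cells of number 03 with and without OSM, against 5.18 and 5.41 in Stat3 WT cells. Number 02 gave Ccne2 values of 5.17 and 4.42 in Stat3 KO cells with and without OSM, against 4.23 and 4.18 in Stat3 WT cells. All 4 values of number 03 were above all 4 of number 02, with 3 values under the floor of 5. The gap was narrow, with 5.18 on the Stat3 WT OSM array of number 03 against 5.17 on the Stat3 KO OSM array of number 02. Over both lines, 4 members (Mcm2, Mcm4, Mcm5 and Mcm7) were lower in number 03 without overlap and Ccne2 was higher, against 16.5% and 22% of all tested probe sets.

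Within number 03, Stat3 KO cells had higher Mcm5, Cdc6 and Cdt1 than Stat3 WT cells. The genotype difference, in log2 units, was 3.30 ± 0.30 (SE) for Mcm5, 9.87-fold, with adjusted p = 0.00413. For Cdc6 it was 2.77 ± 0.26, 6.82-fold, with adjusted p = 0.00473, and for Cdt1 it was 1.18 ± 0.21, 2.27-fold, with adjusted p = 0.0285. These are limma tests with Benjamini-Hochberg adjustment over all 6756 tested probe sets, from a fit of all 8 arrays with a term for OSM. Within a number each line had 1 untreated and 1 OSM array, with no replicate. The standard errors here and in the other fits by genotype and number thus measure departures from a common OSM effect. They do not measure how a genotype difference would vary between repeats. In these bulk samples fewer cells of a kind and less RNA per cell cannot be told apart. So 3 of 9 members were called higher and 0 lower, while 3.83% of all tested probe sets were called higher, 2.95% lower and 6.78% in either direction. The other 6 members had differences of 0.02 (Mcm7) to 0.79 (Mcm3, adjusted p = 0.145). All 9 differences were above 0, as were 47.1% of all probe sets, and in 8 of the 9 genes, all but Mcm7, the lines did not overlap, against 23.2% of probe sets that were higher and 29.6% that were lower without overlap. The second Cdt1 probe set gave 0.77 with adjusted p = 0.214, and setting values under 5 to 5 reduced the Cdc6 difference to 1.03 with adjusted p = 0.0502. Without the Stat3 KO OSM array of number 03, whose Stat3 reading stood apart, Cdc6 differed by 3.02 (adjusted p = 0.0477), Mcm5 by 3.43 (adjusted p = 0.0553) and Cdt1 by 1.02 (adjusted p = 0.29), so 1 member was called. Without the untreated Stat3 KO array of number 03 none was called, with Mcm5 at 3.17 and Cdc6 at 2.52 (adjusted p = 0.0565 each). Without the Stat3 WT OSM array of number 03 the Cdc6 call was lost (2.65, adjusted p = 0.0583), and the Cdt1 call was lost with any of these 3 arrays or any of the other 3 Stat3 WT arrays left out, at 0.98 to 1.39. Leaving out either Stat3 KO array of number 02 gave 5 members called. Beside these genes, the fibroblast markers Lum (-5.28), Pdgfra (-1.18) and Dcn (-1.10) and the leukocyte marker Cd14 (-1.68) were called lower in Stat3 KO cells of number 03, and their part in the members' difference was not tested.

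**Figure D2:**
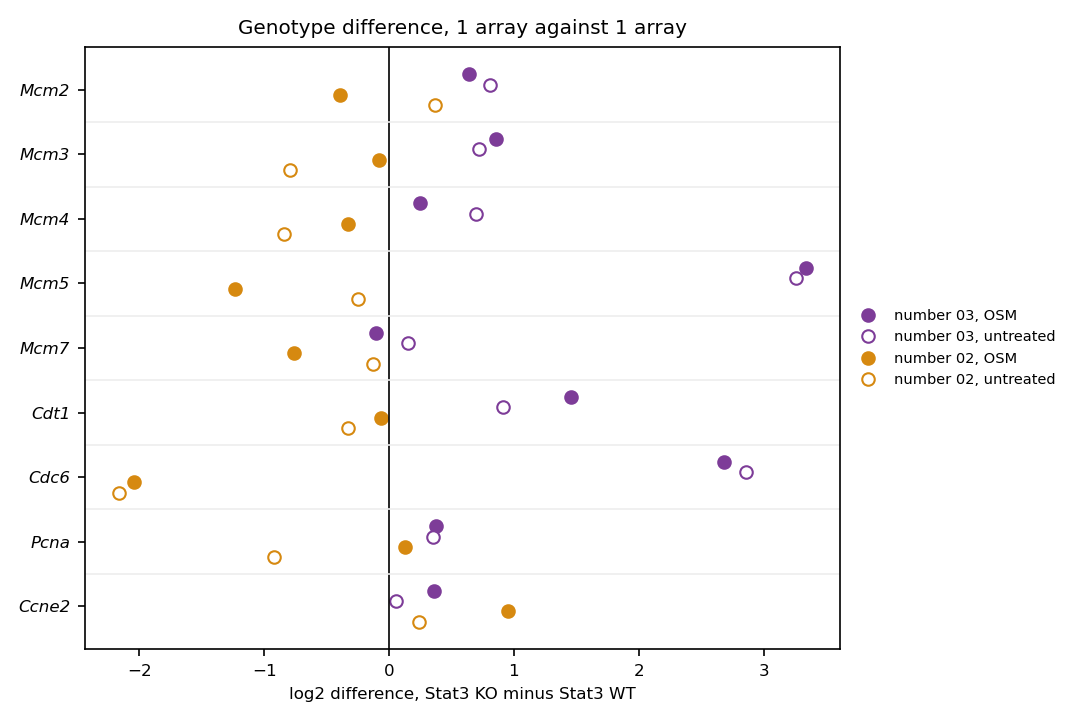
Log2 difference of Stat3 KO minus Stat3 WT for each tested member within number 03 and number 02, with 1 point per pair of arrays, filled for OSM and open for untreated. The Mcm5 points are at 3.26 and 3.34 in number 03 and below 0 in number 02, and the Cdc6 points are at 2.68 and 2.86 in number 03 and at -2.04 and -2.16 in number 02.

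In number 02 the only member called was Cdc6, which was lower in Stat3 KO cells by 2.10 ± 0.26 log2 units (SE), 4.29-fold, with limma adjusted p = 0.0104. Probe sets called lower made up 3.02% of those tested, those called higher 2.56%, and 5.58% were called in either direction. Mcm5 differed by -0.74 ± 0.30 (adjusted p = 0.204) and Mcm4 by -0.58 ± 0.20 (adjusted p = 0.157). The remaining members lay between -0.44 (Mcm7) and 0.59 (Ccne2). Mcm3, Mcm4, Mcm5, Mcm7 and Cdc6 were lower in Stat3 KO without overlap and Ccne2 was higher, against 23.5% and 19.8% of probe sets. For Mcm3 the gap was narrow, with 10.83 on the Stat3 KO OSM array against 10.87 on the untreated Stat3 WT array, and its second probe set overlapped. The Cdc6 call was lost without the Stat3 WT OSM array (-1.96, adjusted p = 0.0853) or the untreated Stat3 WT array (-2.24, adjusted p = 0.0594) of number 02, and 2 members were called without the Stat3 KO OSM array of number 02. Of the markers, Krt8 was called lower in Stat3 KO cells of number 02 (-2.89) and Dcn higher (1.46), and their part in the Cdc6 difference was not tested.

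The genotype difference itself was tested between the numbers. It was greater in number 03 than in number 02 by 4.87 ± 0.37 log2 units (SE) for Cdc6 (adjusted p = 0.00517) and by 4.04 ± 0.42 for Mcm5 (adjusted p = 0.00787), by limma. With values under 5 set to 5 the Cdc6 difference was 3.13. For 2 of 9 members the difference between numbers was called higher, set beside 2.98% of probe sets, and none was called lower, set beside 2.19%. Cdt1 missed the threshold at 1.38 ± 0.30 (adjusted p = 0.056), though not after median centring (1.46, adjusted p = 0.0444) or with the filter at 7 (adjusted p = 0.0498). Also short of it were Mcm4 at 1.06 (adjusted p = 0.0982) and Mcm3 at 1.22 (adjusted p = 0.13). The call on Cdc6 held in all 8 leave-one-out fits. That on Mcm5 was lost without the Stat3 KO OSM array of number 03 (4.17, adjusted p = 0.0659) or the untreated one (3.91, adjusted p = 0.0689). Without the Stat3 KO OSM array of number 02, 5 members were called. Among the markers, the difference between numbers was called lower for Lum (-5.62), Dcn (-2.57) and Pdgfra (-2.00) and higher for the epithelial Krt8 (2.92). Over all 9 members 8 differences between numbers were above 0, as were 50.6% of probe sets. In 8 of 9 members, all but Ccne2, the fitted genotype difference was above 0 in number 03 and below 0 in number 02, with Mcm7 at 0.02 in number 03 and Mcm2 at -0.01 in number 02, against 23.1% of all probe sets.

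Seen along the other axis, the members lower in number 03 than in number 02 in Stat3 KO cells were Mcm7 (-1.70 ± 0.20 log2 units, SE, adjusted p = 0.00476), Mcm2 (-1.53 ± 0.25, adjusted p = 0.0104) and Mcm5 (-1.41 ± 0.30, adjusted p = 0.0215). These 3 of 9 called lower compare with 11.8% of probe sets called lower, 13.9% higher and 25.8% in either direction. Cdc6 differed by 0.50 ± 0.26 (adjusted p = 0.202) and Cdt1 by -0.48 ± 0.21 (adjusted p = 0.139). Mcm4, Pcna and Mcm3 lay at -0.40, -0.11 and -0.08, and Ccne2 at 0.71. Without the Stat3 KO OSM array of number 03, or without the untreated one, none was called, with Mcm7 at -1.66 (adjusted p = 0.0582) and -1.74 (adjusted p = 0.0525). Mcm5 also lost its call without the untreated Stat3 KO array of number 02 (-1.24, adjusted p = 0.0742), and without the OSM array of that number 5 members were called. Over all probe sets 54.1% of the calls were higher in number 03, and 35.9% after median centring. Of 11 tested fibroblast markers 2 were called higher and 1 lower in the same comparison. The neural marker Nefl was also called higher and the muscle marker Myog lower, and the part of these markers in the members' change was not tested. By values, Mcm2, Mcm4, Mcm5 and Mcm7 were lower without overlap and Cdc6 and Ccne2 higher, against 26.8% and 35% of probe sets.

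Stat3 WT cells of number 03 had less of most members than Stat3 WT cells of number 02. Mcm5 was lower by 43.7-fold (-5.45 ± 0.30 log2 units, SE, adjusted p = 0.000246) and Cdc6 by 20.7-fold (-4.37 ± 0.26, adjusted p = 0.000308). Mcm2 was lower by 4.82-fold, Mcm7 by 4.48-fold, Cdt1 by 3.63-fold, Mcm4 by 2.75-fold and Mcm3 by 2.47-fold, with limma adjusted p from 0.00107 to 0.0108. The Cdc6 fold rests on values below the floor, and with values under 5 set to 5 its difference was -2.64. In all, 7 of 9 members were called lower and 1, Ccne2, was called higher (1.09 ± 0.29, adjusted p = 0.0244), while 20.4% of probe sets were called lower and 23.1% higher, 43.5% in all. Pcna, at -0.87 ± 0.31, had an adjusted p of 0.0636, and was called at -0.92 after quantile normalization (adjusted p = 0.0461), at -1.17 after median centring (adjusted p = 0.0279) and without the filter (adjusted p = 0.0448). The Ccne2 call was lost with values under 5 set to 5 (0.30, adjusted p = 0.163), on quantile normalization, on median centring and in 6 of 8 leave-one-out fits, all but those without a Stat3 KO array of number 02. The Mcm3 call was lost without the untreated Stat3 WT array of number 02 (-1.25, adjusted p = 0.0665), the OSM array of that line and number (-1.37, adjusted p = 0.0636) or the OSM array of number 03 (-1.08, adjusted p = 0.0711), and the second Mcm3 probe set gave -0.55 with adjusted p = 0.0746. Over all probe sets 53% of the calls were higher in number 03, and 34.6% after median centring, which put the median of all probe sets at -0.20, against 0.10 as deposited (-0.13 and 0.08 in Stat3 KO cells). In the same comparison 7 of 11 tested fibroblast markers were called higher in number 03 and 0 lower, among them Lum (5.65), Dcn (3.98) and Pdgfra (2.08). The endothelial Kdr (2.44) and the neural Nefl were called higher. Krt8 (-2.76), the muscle marker Myog and the neural Tubb3 were called lower. The part of these markers in the members' change was not tested. In values, 8 members were lower without overlap and Ccne2 was higher, against 34% and 42.3% of probe sets. The tests by number and those by genotype use the same 8 arrays, and the difference of the genotype effects is also the difference of these number effects, so they are not separate evidence.

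**Figure D3:**
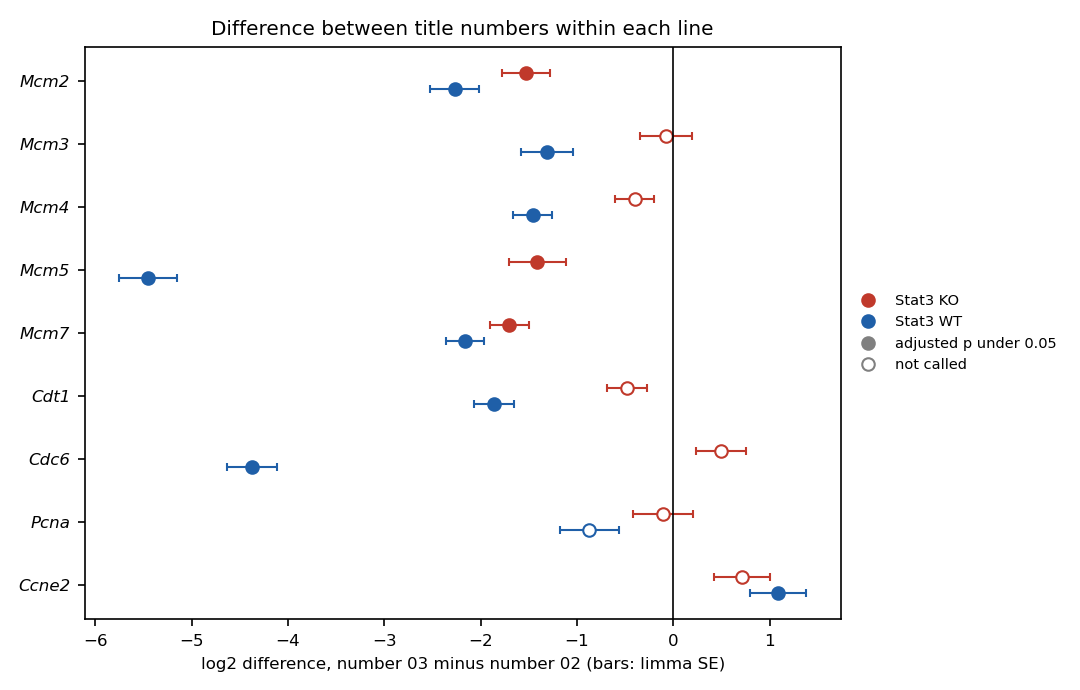
Log2 difference of number 03 minus number 02 for each tested member within each line, Stat3 KO above Stat3 WT, with limma standard errors as bars and called differences as filled points. Mcm5 is at -1.41 in Stat3 KO and -5.45 in Stat3 WT, and Mcm7 at -1.70 in Stat3 KO and -2.16 in Stat3 WT.

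Over both numbers together, the genotype comparison called none of the 9 members. Without OSM the differences of Stat3 KO minus Stat3 WT ran from -0.28 to 1.51 log2 units, and with OSM from -0.43 to 1.06, with a limma adjusted p of 1 for every member and none at an unadjusted p under 0.05. Of all probe sets 0% were called without OSM, with 2.24% at an unadjusted p under 0.05, and 0.0148% were called with OSM, with 3.6% at an unadjusted p under 0.05. The spread between the 2 arrays of a group entered these tests, giving standard errors of 0.48 to 2.30 for the members, against 0.20 to 0.31 in the fit by number. The smaller errors of the fit by number come from untreated and OSM arrays of a line and number, not from replicates. For Mcm5 the mean was 9.91 ± 0.97 in Stat3 KO cells with OSM, against 8.85 ± 4.21 in Stat3 WT cells with OSM, and 10.59 ± 1.02 in Stat3 KO cells without OSM, against 9.09 ± 3.50 in Stat3 WT cells without OSM (SD, n = 2 each). The labels name no separate cultures behind the arrays of a group, so every p-value covers only array-to-array spread, which could be technical.

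With OSM no member was called in either line. The limma difference of OSM minus untreated ran from -0.69 to 0.52 log2 units in Stat3 KO cells and from -0.93 to 0.16 in Stat3 WT cells, with 0 of 9 members at an unadjusted p under 0.05. Among all probe sets 0% were called in each line, with 2.04% at an unadjusted p under 0.05 in Stat3 KO cells and 1.87% in Stat3 WT cells. The interaction of genotype and OSM called 0% of probe sets, with 0.429% at an unadjusted p under 0.05, and 0 members. By number, 0 of 9 members were called with 0% of probe sets in number 03 and 0.0148% in number 02, and no member's representative probe set had an unadjusted p under 0.05. The difference of the OSM effects between the numbers called 0% as well. At an unadjusted p under 0.05 there were 4.34% of probe sets in number 03, 9.12% in number 02 and 1.42% for the difference of the OSM effects. Treatment lasted 30 minutes, and the standard errors of the members' OSM effects by number ran from 0.27 to 1.45 log2 units. The fits by number held genotype as an additive term. A genotype difference that changed between numbers therefore widened their standard errors, to 1.22 for Mcm5 and 1.45 for Cdc6. The fits by line held no term for number, so the split by number widened theirs. A missing call in these fits is thus not a measured absence of an OSM effect.

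Cdt1 had the most regular OSM values. With OSM it was lower by 0.48 in Stat3 KO cells and by 1.03 in Stat3 WT cells of number 03, and by 0.55 in Stat3 KO cells and by 0.82 in Stat3 WT cells of number 02, in log2 units. Its second probe set was lower in all 4 pairs too, with a fitted OSM effect of -0.33 ± 0.37 (SE) in number 03 and -1.12 ± 0.37 in number 02, where it had an unadjusted limma p of 0.0247 and an adjusted p of 0.483. Mcm2 was the other member lower in all 4 pairs, by 0.11 to 0.87. Such a pattern was seen in 15.7% of all probe sets, and 13.4% were higher in all 4 pairs. The fitted Cdt1 effect was -0.51 in Stat3 KO cells and -0.93 in Stat3 WT cells, with an adjusted p of 1 in both, and in Stat3 WT it ranged from -1.91 to 0.05 when single arrays were left out. Pcna and Mcm3 were higher with OSM by 1.11 and 0.76 in Stat3 KO cells of number 02, and differed by -0.20 to 0.07 in the other 3 pairs.

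**Figure D4:**
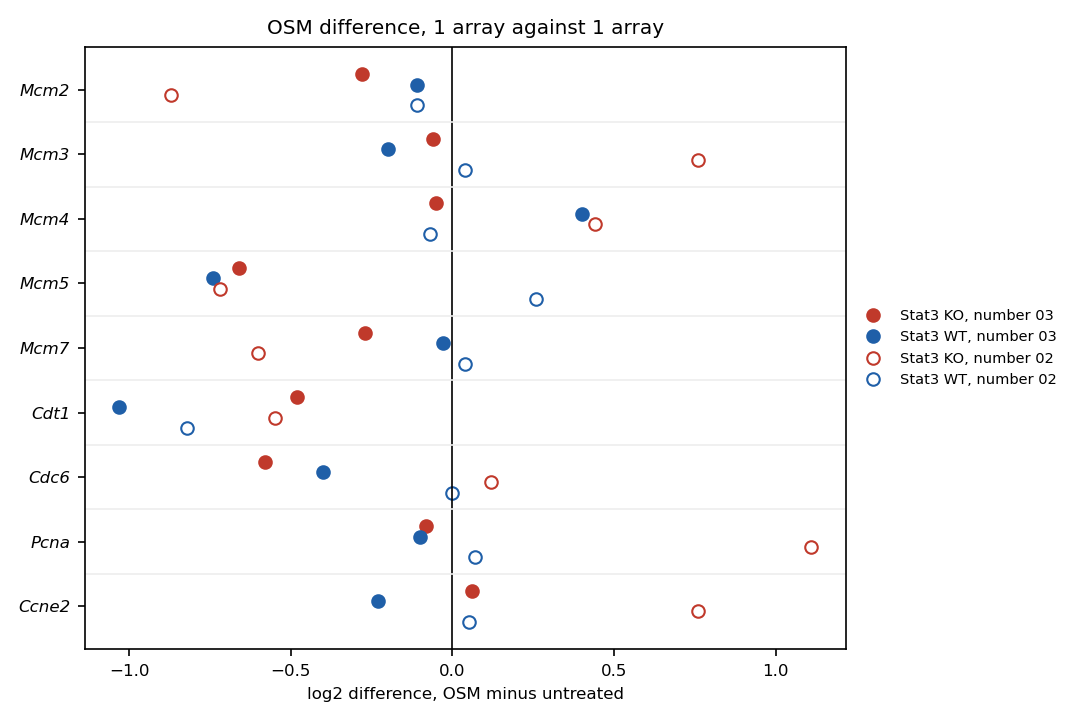
Log2 difference of OSM minus untreated for each tested member in each line and number, 1 point per pair of arrays. The 4 Cdt1 points lie between -1.03 and -0.48, and Pcna reaches 1.11 in the Stat3 KO pair of number 02.

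Other genes of the replication pathway were taken from lists written with earlier results of these data in view. Of 10 tested genes for origin recognition and helicase activation, 1 was called for a genotype difference greater in number 03 than in number 02, the licensing inhibitor Gmnn (1.85 ± 0.31 log2 units, SE, limma adjusted p = 0.0281), set beside 2.98% of all probe sets. Within number 03 the origin recognition subunit Orc5 was called lower in Stat3 KO cells (-1.31 ± 0.28, adjusted p = 0.0478), and within number 02 Gmnn was, with 0 of the 10 called higher in either. In Stat3 KO cells 2 of these 10 were lower in number 03 than in number 02, Gmnn and Orc5 (-1.41 ± 0.28, adjusted p = 0.019), and 3 were higher, the origin recognition subunit Orc4 (1.43 ± 0.36, adjusted p = 0.0329) with Cdc7 and Dbf4, the kinase and its activator that fire licensed origins, set beside 11.8% and 13.9% of all probe sets. In Stat3 WT cells 2 were lower, Gmnn and Mcm10, and 2 were higher, Cdc7 and Dbf4, shares close to those over all probe sets (20.4% lower and 23.1% higher). Dbf4 was higher by 1.70 ± 0.23 in Stat3 KO cells (adjusted p = 0.00642) and by 0.99 ± 0.23 in Stat3 WT cells (adjusted p = 0.0164). Cdc7 was higher by 0.83 in Stat3 KO cells (adjusted p = 0.042) and by 1.11 in Stat3 WT cells (adjusted p = 0.0112).

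Of 27 tested replication fork genes, 7 had a genotype difference called greater in number 03 and 0 smaller, set beside 2.98% and 2.19% of all probe sets. They included Top2a, the topoisomerase that untangles daughter strands (2.63 ± 0.42, adjusted p = 0.0243), Uhrf1, which reads hemimethylated DNA (2.32 ± 0.30, adjusted p = 0.0141), and Dnmt1, which copies methylation (1.45 ± 0.24, adjusted p = 0.0257). In Stat3 KO cells 8 of the 27 were lower in number 03 and 0 higher (11.8% and 13.9% of all probe sets), and in Stat3 WT cells 21 were lower and 0 higher (20.4% and 23.1%). Of 10 nucleotide synthesis genes, 3 were called for the difference of genotype effects, namely Tk1, the thymidine kinase (2.37 ± 0.32), Rrm1, a subunit of ribonucleotide reductase (2.22 ± 0.23), and Dck, a salvage kinase (1.80 ± 0.33). Mitosis genes had 13 of 24 called greater in number 03, and by number 19 of 24 were lower in number 03 in Stat3 KO cells and 23 of 24 in Stat3 WT cells, against the same 11.8% and 20.4% of all probe sets. Of 15 genes controlling entry to S phase, 1 was called, Ccna2 (2.01 ± 0.29). By number, 2 of these 15 were higher and 3 lower in Stat3 KO cells, and 4 were higher and 5 lower in Stat3 WT cells, shares of the 15 not far from those of all probe sets. The pattern of a fitted genotype difference higher in number 03 and lower in number 02 was shown by 8 of 9 members, 20 of 27 fork genes, 20 of 24 mitosis genes, 6 of 10 nucleotide genes, 6 of 10 origin genes and 6 of 15 S-phase entry genes. It was shown by 5 of 13 CDK inhibitors and p53 targets, and by 23.1% of all probe sets. Among the members, Mcm7 was at only 0.02 in number 03 and Mcm2 at -0.01 in number 02. Single pairs went the other way for Mcm2 (0.37 untreated, number 02), Mcm7 (-0.10 with OSM, number 03) and Pcna (0.13 with OSM, number 02). The median genotype difference in number 03 was 0.72 for the members, against -0.02 for all probe sets, and in number 02 it was -0.43, against -0.04.

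**Figure D5:**
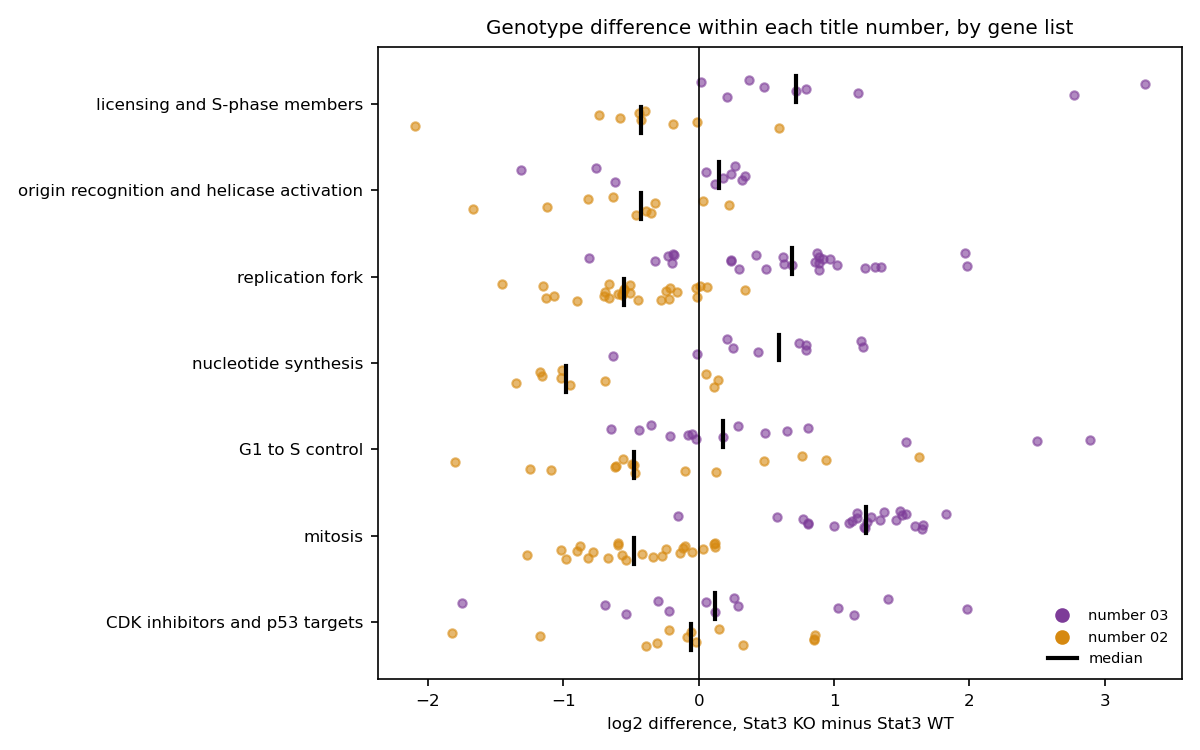
Log2 difference of Stat3 KO minus Stat3 WT within number 03 and number 02 for the genes of each list, 1 point per gene with the median as a bar. The members' medians are 0.72 in number 03 and -0.43 in number 02, and the mitosis genes' medians are 1.23 and -0.48.

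The genes with profiles most like the mean profile of the members were found by Pearson correlation over the 8 arrays, which share the split by number. They were Lsm3 (r = 0.9944), Prc1 (0.9886), Bub1 (0.9865), Cdca8 (0.9861) and Top2a (0.9836). The most opposite profiles belonged to Kdm5b (-0.9924), Col3a1 (-0.9821), Vamp4 (-0.9781), Slc25a15 (-0.9755) and Rad51b (-0.9749). Col3a1, a fibrillar collagen, was listed here by a probe set that is not its brightest. It read 12.79 and 12.88 in Stat3 KO cells of number 03 with and without OSM, against 14.27 and 14.06 in Stat3 WT cells. In number 02 it read 11.78 and 11.67 in Stat3 KO cells with and without OSM, against 10.82 and 11.08 in Stat3 WT cells. The Col3a1 probe set with the highest mean had the same order, with smaller gaps in every pair. It read 14.25 and 14.65 in Stat3 KO cells of number 03 with and without OSM, against 14.89 and 15.23 in Stat3 WT cells. In number 02 its Stat3 KO values were 13.7 and 13.76, and both Stat3 WT values were lower, the higher at 13.58. The members' profile was centred but not scaled, so Mcm5 (range 5.95) and Cdc6 (range 4.57) weigh most in it and in these correlations. Cdc6 was under the floor of 5 on both Stat3 WT arrays of number 03, at 3.07 and 3.46. The mean of the members, each centred on its own mean, was -0.23 and 0.04 in Stat3 KO cells of number 03 with and without OSM, against -1.33 and -1.06 in Stat3 WT cells. In number 02 it was 0.43 and 0.38 in Stat3 KO cells with and without OSM, against 0.85 and 0.91 in Stat3 WT cells.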

How the data were processed

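Biotin-labelled cRNA from total RNA was measured on Affymetrix arrays, per the labels' protocols. The authors deposited 1 log2 value per probe set and array, and the submitters' processing notes name GCRMA and affy without versions. Joint normalization of all arrays is not stated there. Dim probe sets are compressed towards low values by GCRMA, so a difference that reaches them can be enlarged. Apart from 66 controls, which were left out, the 12488 probe sets were annotated by the platform table: 10833 had 1 gene symbol, 396 several and 1193 none, and gene IDs of 10817 matched the RefSeq table of GRCm38.p6.

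Probe sets at a log2 value of at least 5 on at least 2 arrays were tested (6756, of 5195 genes) with limma 3.58.1 in R 4.3.3, using eBayes with an intensity trend, two-sided, with Benjamini-Hochberg adjustment over all of them and calls at an adjusted p under 0.05. Effects over both numbers came from 4 group means with 4 residual degrees of freedom. Effects by number came from genotype-by-number means with an OSM term, or OSM-by-number means with a genotype term, with 3. A gene was represented by its tested probe set with the highest mean. In the profile search Col3a1 was listed by another of its probe sets. All members were named, with list genes that were called and the 5 profiles most like and most unlike the members' mean. The fits were tested on simulated data. Groups and numbers come from the sample titles. The members and lists were chosen with earlier results of these data known. Other settings were the filter, the trend, robust estimation, quantile normalization, median centring, a floor, the other probe set, only the groups compared, a replicate block and leaving out each array. The number of arrays limits the precision.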

Additional observations from a re-analysis of the deposited data

Results flagged for a closer look

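The genotype difference, Stat3 KO minus Stat3 WT, differed between the numbers for Cdc6, by 4.87 log2 units, and for Mcm5, by 4.04, both past the threshold in the limma test of the difference of number 03 minus number 02.

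For 3 more members both pairs of arrays in number 03 moved one way and both pairs in number 02 the other. The share of all probe sets with such opposite pairs was not counted. The genotype difference was greater in number 03 by 1.38 for Cdt1 (limma adjusted p = 0.056), by 1.06 for Mcm4 (adjusted p = 0.0982) and by 1.22 for Mcm3 (adjusted p = 0.13), so none of these passed the test of the difference.

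The effect of OSM also had opposite signs between the numbers in every pair for Mcm3, with a difference of number 03 minus number 02 of -0.53, and for Pcna, with -0.68, and the share of all probe sets with opposite OSM pairs was not counted either. Outside the Stat3 KO pair of number 02, these pairs lay between -0.20 and 0.07. The second Mcm3 probe set did not have opposite signs in every pair, with 0 in the Stat3 KO pair of number 03. Both Mcm3 and Pcna had an adjusted p of 1 in the limma test of that difference between numbers.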

How the results depend on the processing

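Apart from the fits that leave out an array, 326 of 340 alternative values for single members kept direction and side of the threshold, and 3 reversed, namely the genotype difference of Mcm2 in number 02 (0.05 after quantile normalization), the difference between numbers for Ccne2 (0.12 with values under 5 set to 5) and the number difference of Mcm3 in Stat3 KO (0.02 with the other probe set). The cause was not tested.

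The numbers of called probe sets moved as follows. For genotype with OSM 0 were called without the trend, with robust estimation, quantile normalization, median centring, the floor or only the groups compared. OSM in number 03 gave 2 without a filter and 1 with the filter at 7, robust estimation or the floor, and OSM in Stat3 KO gave 1 with the floor. OSM in number 02 gave 14 without a filter, 12 with the filter at 7, 0 without the trend or with quantile normalization and 2 with median centring. Without a filter 7052 were called between numbers in Stat3 WT.

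With a replicate block, which treats equal numbers as pairs, 2 probe sets were called for OSM in Stat3 KO, 1 for OSM in Stat3 WT and 7 for genotype with OSM, and no member. Deviations of same-numbered arrays correlated between groups at 0.589 to 0.911.

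Leaving out each array kept direction and side for 322 of 376 member values and reversed 12. It gave 42 to 982 called probe sets for genotype in number 03, 84 to 712 in number 02 and 24 to 823 for their difference, with 0 to 5, 0 to 2 and 1 to 5 members. Between numbers it gave 199 to 2730 in Stat3 KO, with 0 to 5 members, and 1123 to 3788 in Stat3 WT. OSM in number 02 gave 0 to 4, and genotype with OSM 0 to 1. Signs changed within -1.91 to 0.05 for OSM in Stat3 WT on Cdt1. They also changed for genotype in number 03 within -0.10 to 0.15 (Mcm7) and -0.05 to 0.47 (Ccne2), in number 02 within -0.37 to 0.34 (Mcm2) and -0.97 to 0.18 (Pcna), for their difference within -0.78 to 0.02 (Ccne2), and between numbers in Stat3 KO within -0.50 to 0.33 (Mcm3) and -0.69 to 0.46 (Pcna).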

Other observations

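The list of CDK inhibitors and p53 targets, whose genes do not all act on the cell cycle in the same direction, had 13 tested genes. In Stat3 KO cells 4 of them were higher (Btg2, Gadd45b, Cdkn1b and Mdm2) and 0 lower in number 03 than in number 02. In Stat3 WT cells 4 were higher (Gadd45a, Mdm2, Cdkn1b and Ccng1) and 3 lower (Plk2, Cdkn2d and Gadd45b). The shares over all probe sets were 13.9% higher and 11.8% lower for the Stat3 KO arrays, against 23.1% higher and 20.4% lower for the Stat3 WT arrays, so the Stat3 WT counts stand close to the background. Cdkn1b, the inhibitor p27, was higher in number 03 by 1.66 ± 0.39 log2 units (SE) in Stat3 KO cells (limma adjusted p = 0.0289) and by 1.23 ± 0.39 in Stat3 WT cells (adjusted p = 0.0452). Gadd45b was called for a genotype difference greater in number 03 (1.87 ± 0.34, adjusted p = 0.0326).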
